A study of Mus musculus with 19 samples.

Results

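The astrocytes of APP mice, pooled over both viral vectors, were compared with those of WT mice. The 9 APP samples are all the APP astrocyte samples among the 19 samples of the series, 4 from APP-GFP mice and 5 from APP-SOCS3 mice, and they were set against 7 samples from WT-GFP mice. The question was which genes moved the same way in both APP groups, whichever vector the astrocytes carried. Mice were 9 month-old males of the C57bl6 strain, given as C57BL/6 J in the study's methods. APP mice are APP/PS1dE9 transgenics, which carry an *App* transgene that joins mouse and human sequence and bears the Swedish mutations, and WT mice were their littermates without these transgenes. Every group had received an adeno-associated virus driving GFP from an astrocyte promoter in the CA1 region of the hippocampus several months before, and APP-SOCS3 mice also received a virus driving SOCS3 from the same promoter at the same total dose, so no group was free of a vector. GFP+ cells were sorted from dissociated hippocampi. The 2 hippocampi of a mouse were sorted separately, and the labels do not tell which samples share a mouse, so p-values measure the spread between samples and may be too small. There were no WT mice with SOCS3, and the APP groups are 1 transgenic line, so genotype effects in SOCS3 astrocytes rest on APP-SOCS3 against WT-GFP, where genotype and vector cannot be told apart.

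APP/PS1dE9 mice deposit amyloid-β in cortex and hippocampus as they age, and astrocytes and microglia near the plaques change shape and gene expression. Astrocytes become reactive, with more of the intermediate filaments GFAP and vimentin, while microglia near plaques turn on a set of disease-associated genes that includes *Cst7*, *Ccl6* and *Cd52*. The JAK2-STAT3 pathway carries signals of gp130 cytokines into the nucleus, and SOCS3 is its feedback inhibitor.

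The 16 astrocyte samples had 19331876 to 32621917 reads on genes, and 15575 to 26757 genes were detected, that is, had a level above 0. WT-GFP replicates 1, 2 and 3 and APP-GFP replicate 2 each had fewer than 20000 genes detected and the other 12 samples more. Depth did not set them apart, since these 4 samples had 20890373 to 32621917 reads. Astrocyte markers did not separate the groups. Of 15 tested markers, such as *Aldh1l1*, *Slc1a3* and *Gja1*, none was called in either direction, with a median difference of 0.06 on the log2(level + 1) scale. Their summed normalized mRNA level ran from 774563 to 1147360 in the WT-GFP samples. The APP-GFP samples had 812979 to 1049990 and the APP-SOCS3 samples 882007 to 1281680, against 29041 to 93390 in GFP- cells sorted from WT-GFP mice. Other cell types were present at lower levels, and they did not move alike in the APP groups. For 16 microglial markers, the sum was 11352 to 40658 in WT-GFP samples, 15366 to 72422 with APP-GFP and 8636 to 14937 with APP-SOCS3. In the same order, sums of 14 endothelial markers were 4952 to 48065, 7273 to 41180 and 1415 to 8186, and those of 11 mural cell markers 3572 to 34369, 4359 to 21861 and 2486 to 4209. No marker on these lists was at 0 in all 16 samples. In sorted bulk samples, fewer cells of a type and less RNA per cell cannot be told apart.

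**Figure D1:**
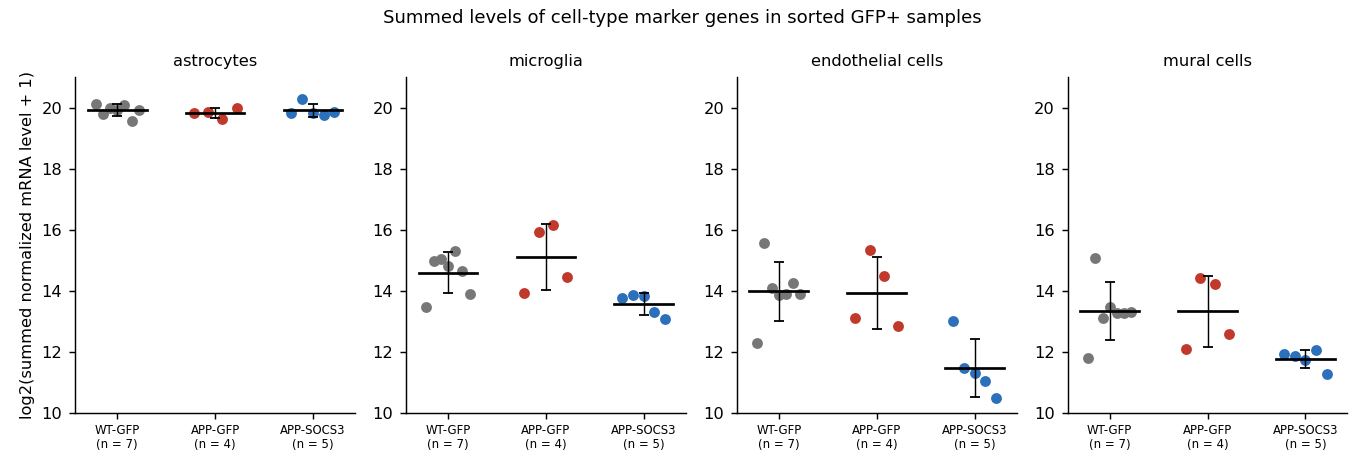
Summed normalized mRNA levels of cell-type marker genes, as log2(sum + 1), in each sorted sample of the 3 groups, for 15 astrocyte, 16 microglial, 14 endothelial and 11 mural cell markers. Points are samples, lines and bars the group mean ± SD on the log2 scale. Astrocyte markers lay within one range in all groups, while the other 3 lists were lower in APP-SOCS3 samples than in most samples of the other groups.

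Tests covered 22865 genes whose mean reached 10 in APP or WT samples. A gene was called when its limma p, unadjusted, did not exceed 0.05 and it changed 1.5-fold or more, and 924 genes were. This was 4.04% of the genes tested. Of these, 686 were called higher in APP (3%) and 238 lower (1.04%). At the p threshold alone, 4.6% of genes passed (1052 genes), which is close to the share that this threshold passes when no gene differs. After Benjamini-Hochberg adjustment of the limma test, 1 gene remained, *Cst7*, and the next smallest adjusted p was 0.927. Called genes were shared when the difference from WT-GFP was at least 1.5-fold in the same direction in APP-GFP and in APP-SOCS3. There were 832 shared genes (3.64%), 660 higher (2.89%) and 172 lower (0.752%) in both APP groups. Both differences use the same WT samples, so the count of shared genes is no independent support. The direct contrast of the APP groups used no WT sample, and 368 genes were called higher (1.61%) and 511 lower (2.23%) in APP-SOCS3 than in APP-GFP. Of the 660 shared higher genes, 16 were called higher and 4 lower in that contrast, and of the 172 shared lower genes, 2 were called higher and 13 lower. Sharing required both APP groups to lie on the same side of WT, which favours genes whose APP groups are alike. These counts therefore do not measure independence from the vector.

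The balance between higher and lower genes was not stable. It was 74.2% higher among all calls with limma, 48.9% with edgeR on whole reads (367 higher, 384 lower) and 58.3% with DESeq2 (442 higher, 316 lower). Without the 4 samples with fewer than 20000 genes, a set chosen after the data were seen, it was 37.3% (458 higher, 770 lower). The median over all genes was 0.12 in the limma fit of 16 samples, 0.01 with edgeR and -0.02 without those 4 samples on the log2 scale. Of the 832 shared genes, 283 were shared with edgeR, 363 with DESeq2 and 274 without the 4 samples. The shared genes of any single fit are therefore listed below with the calls of the other fits.

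**Figure D2:**
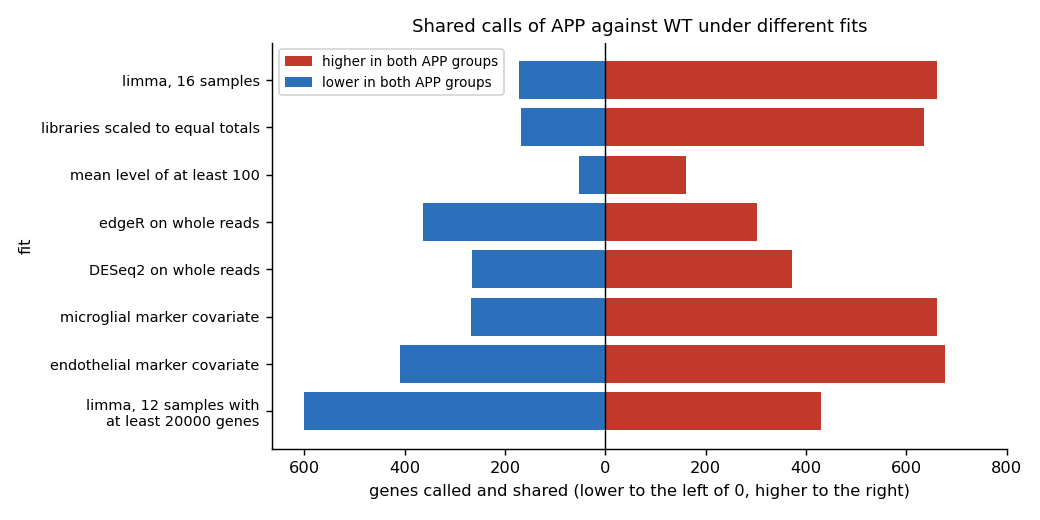
Number of genes called and shared by both APP groups under 8 fits, with genes lower than WT drawn to the left of 0 and genes higher to the right. The limma fit of 16 samples gave 660 higher and 172 lower genes, and the limma fit of the 12 samples with at least 20000 genes gave 430 higher and 600 lower.

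*Cst7* was the one gene past adjustment with limma. It encodes cystatin F, an inhibitor of lysosomal cysteine proteases made by immune cells, and lies on chromosome 2 (mm10, 150570414 to 150578944, plus strand). Normalized mRNA levels were 0 in 6 of 7 WT-GFP samples and 11.2, or 13 reads, in WT-GFP replicate 5. They were 544, 2401, 4526 and 905 in APP-GFP replicates 1 to 4. In APP-SOCS3 replicates 1 to 5 they were 238, 388, 694, 229 and 43.9. All 9 APP samples were above all 7 WT samples, and the lowest APP sample was APP-SOCS3 replicate 5. The difference was 8.55 ± 0.86 (SE) on the log2(level + 1) scale (95% interval 6.74 to 10.36, adjusted p = 0.000249 with limma), and the 2-sided exact permutation test gave 8.74e-05, the smallest p that 11440 assignments of the samples can give. APP-GFP samples exceeded WT-GFP by 10.06 and APP-SOCS3 samples by 7.34 on that scale. The difference between the APP groups was -2.71 (95% interval -4.78 to -0.65, unadjusted p = 0.0131, adjusted p = 0.99), so *Cst7* was lower with SOCS3 at the unadjusted threshold only. Whichever single sample was left out, the difference stayed between 8.16 and 9.06. It was 9.19 with edgeR (adjusted p = 0.0251) and 7.89 without the 4 samples with few genes (limma, adjusted p = 0.0261). With replicate number as a block in limma, it was 8.3 and its adjusted p was 0.255.

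*Cst7* is a microglial gene in amyloid mice, and its level was therefore set beside that of the 16 homeostatic microglial markers of the same sample. Per 1000 units of their summed level, *Cst7* had 35.4 to 62.5 units in APP-GFP, 5.09 to 47.6 in APP-SOCS3 and 0 to 0.277 in WT-GFP samples. In the 3 samples of GFP- cells of WT-GFP mice, which had 132752 to 234721 units of these markers, the ratio was 0.32 to 0.706. The lowest APP ratio was thus above the highest of all 10 WT samples, although GFP- cells held far more microglial marker RNA. The ratios of the APP groups overlapped. With the mean of the microglial markers as a covariate, the difference was 8.89 on the log2 scale, and with that of endothelial markers 9.49. Which cells within the GFP+ gate held the *Cst7* RNA was not tested.

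Bases before the start of *Cst7* and *Ccl6*, 2 of the 3 disease-associated microglia genes that moved together, are shown because the promoters of such myeloid genes commonly bind the ETS factor PU.1. Each is the 250 bases before the RefSeq start on GRCm38.p6, in the direction of the gene. *Cst7* is at chr2:150570165-150570414 on the plus strand and *Ccl6* at chr11:83593088-83593337 on the minus strand. Capitals mark the ETS core GGAA on either strand.
Cst7: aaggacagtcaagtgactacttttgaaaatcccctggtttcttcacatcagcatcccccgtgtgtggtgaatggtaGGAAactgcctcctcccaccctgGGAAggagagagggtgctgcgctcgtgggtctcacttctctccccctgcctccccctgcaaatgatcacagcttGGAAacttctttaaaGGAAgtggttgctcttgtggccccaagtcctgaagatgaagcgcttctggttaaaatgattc
Ccl6: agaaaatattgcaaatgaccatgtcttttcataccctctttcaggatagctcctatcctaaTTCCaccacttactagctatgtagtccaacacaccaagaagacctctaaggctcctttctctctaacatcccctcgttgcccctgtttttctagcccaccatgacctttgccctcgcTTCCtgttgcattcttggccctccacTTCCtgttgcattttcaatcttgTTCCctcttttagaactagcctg
Each window held 4 matches to GGAA. Of 32851 such windows of mouse genes, 93.4% held at least 1 match, with a median of 3, and 33.4% held 4 or more. GAGGAA, a longer PU.1 motif that contains GGAA, had no match on either strand in these letters, against 23.3% of all windows. Other longer forms of the ETS site were not searched. The STAT motif TTCNNNGAA, searched because SOCS3 acts on STAT3, had no match in either window, against 7.02% of all windows.

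*Ccl6* and *Cd52* were the other 2 of 20 tested disease-associated microglia genes that were called higher, beside 3% of all genes. Like *Cst7*, both were shared. None of the 20 was called lower. *Ccl6*, a CC chemokine of myeloid cells, had 0 to 98.6 (median 50.1) in WT-GFP. Its levels were 197, 896, 1481 and 305 in the 4 APP-GFP samples and 157, 334, 214, 82.3 and 17.6 in the 5 APP-SOCS3 samples. Of the 9 APP samples, 7 were above every WT sample, and the 2 that were not were APP-SOCS3 replicates 4 and 5. The difference was 3.03 ± 0.96 (SE, p = 0.00559, adjusted p = 0.927, exact permutation p = 0.00743). *Cd52*, a small surface glycoprotein of leukocytes, had 0 to 53.1 (median 2.35) in WT-GFP. It had 29, 436, 517 and 206 in APP-GFP and 64, 24.2, 84, 15.7 and 19.3 in APP-SOCS3, so that the APP-SOCS3 range lay across the top of the WT range. Its difference was 3.54 ± 1.05 (SE, p = 0.00353, adjusted p = 0.927, exact permutation p = 0.00708). Without the 4 samples with few genes, the differences of *Ccl6* and *Cd52* were 1.79 and 2.07, and neither was called. Per 1000 units of microglial markers, *Ccl6* had 12.8 to 20.4 units in APP-GFP, above all WT-GFP samples (0 to 4.41) and all GFP- samples of WT mice (7.12 to 11.1), while APP-SOCS3 samples had 2.04 to 22.4. For *Cd52*, APP-GFP samples had 1.89 to 9.27, above all WT-GFP samples (0 to 1.87) but across the range of GFP- samples (1.74 to 3.69), and APP-SOCS3 samples had 1.55 to 5.76. The APP-SOCS3 ratios of both genes overlapped those of WT-GFP, which those of *Cst7* did not.

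**Figure D3:**
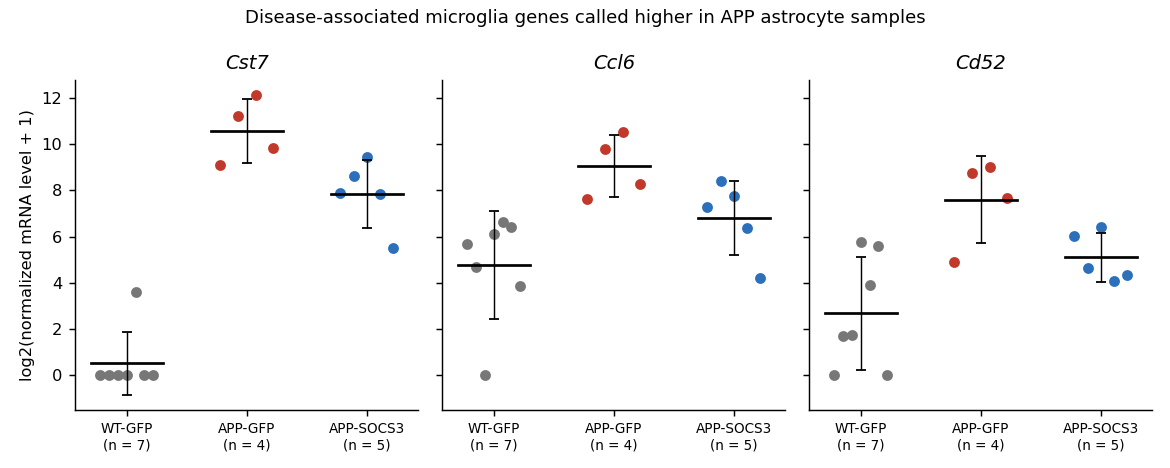
Normalized mRNA levels of *Cst7*, *Ccl6* and *Cd52*, as log2(level + 1), in the 7 samples of WT-GFP, 4 of APP-GFP and 5 of APP-SOCS3. Lines and bars are mean ± SD on the log2 scale. *Cst7* was at 0 in 6 of 7 WT-GFP samples and between 43.9 and 4526 in APP samples, while APP-SOCS3 samples of *Ccl6* and *Cd52* reached into the WT-GFP range.

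The other 17 genes of this list were not called, and for some of them the APP groups lay apart. *Trem2*, a lipid receptor of microglia, had mean levels of 444 in WT-GFP, 1761 in APP-GFP and 222 in APP-SOCS3. For its adaptor *Tyrobp*, means were 583, 2366 and 523, and for *Cd68*, a lysosomal protein of phagocytes, 601, 2172 and 440. *Clec7a*, a pattern recognition receptor, had 5.3, 122 and 9.44, and *Lpl*, a lipase, 55.1, 433 and 52. In all 5 of these genes the APP-SOCS3 mean was far below the APP-GFP mean, and in all but *Clec7a* it was below the WT-GFP mean. These 5 do not stand for the whole list. In APP against WT with limma, *Itgax*, *Lilrb4a* and *Gpnmb* differed by 1.37, 1.41 and 1.28, and *Spp1* by -2.04. *Csf1*, *Ctsd*, *Ctsz*, *Axl*, *Cd9*, *Cd63*, *Ank* and *Fth1* lay between 0.02 and 0.27. In the contrast of the APP groups, 8 of the 20 genes were called lower with SOCS3 and none higher, beside 2.23% and 1.61% of all genes. The median difference of the list from WT-GFP was 1.41 in APP-GFP and 0.06 in APP-SOCS3, beside 0.08 and 0.17 over all genes tested. With edgeR, 5 of the 20 genes were called higher in APP, *Itgax* and *Clec7a* in addition (1.61% of all genes), and with DESeq2 4, *Tyrobp* in addition (1.93% of all genes). With microglial or endothelial markers as a covariate, 7 and 9 genes were called higher, beside 3.06% and 3.14% of all genes in those fits, among them *Lpl*, *Clec7a*, *Tyrobp* and *Cd68* with both. Without the 4 samples with few genes, *Cst7* alone of the 20 was called higher, beside 2% of all genes.

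Shared higher genes with the smallest p, after a minimum mean level of 50, included *Cst7*, *Fcho1*, *Zfp78*, *Rspo3*, *Orai2*, *B230319C09Rik*, *Socs4*, *Stard9*, *Rpusd3*, *Tdgf1* and *A930002H24Rik*. The differences of these 11 genes ran from 0.61 to 8.55 on the log2 scale with exact permutation p of 8.74e-05 to 0.00682. Genes listed by smallest p, here and below, were chosen on these same values. Their exact permutation p is not adjusted for that choice, and it and their calls in other fits of these samples are a description. In 8 of the 11 genes, all 3 WT-GFP samples with few genes had a level under 3. Of all 11 genes, 5 were also called without the 4 samples with few genes, namely *Cst7*, *Fcho1*, *Zfp78*, *Socs4* and *Stard9*, and 5 with edgeR. *Stard9* encodes a kinesin of the mitotic spindle and lies on chromosome 2 (120701341 to 120731897). It had 0 to 70.8 (median 51.9) in WT-GFP, 112, 133, 194 and 147 in APP-GFP and 121, 93.9, 162, 225 and 333 in APP-SOCS3. All 9 APP samples were above all WT samples (3.17 ± 0.91, SE, p = 0.00273, adjusted p = 0.927, exact permutation p = 8.74e-05). The difference stayed called without the 4 samples at a smaller size, 1.4. Across all genes tested, 3 had every APP sample above every WT sample (0.0131%), *Cst7*, *Stard9* and *Bcdin3d*, an RNA methyltransferase gene named after its values were seen, and 3 without a symbol had every APP sample below (0.0131%). Of 11440 assignments, 1 separates a gene fully in a given direction. With 22865 genes tested, a few such genes arise when no gene differs.

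*Socs4*, a member of the SOCS family, is on chromosome 14 (47293612 to 47296098). Its levels were 0 to 81.2 (median 27) in WT-GFP and 214, 353, 206 and 100 in APP-GFP. They were 155, 44.6, 134, 129 and 125 in APP-SOCS3. Of 9 APP samples, 8 were above every WT sample and APP-SOCS3 replicate 2 was not. *Fcho1*, a protein that starts clathrin-coated pits, had 0 to 62 (median 14.5) in WT-GFP, 54.3, 247, 25.7 and 105 in APP-GFP and 69.6, 148, 64, 116 and 135 in APP-SOCS3. All 5 APP-SOCS3 samples and 2 of the 4 APP-GFP samples were above every WT sample. *Orai2*, a subunit of store-operated calcium channels, had 0 to 205 (median 19.7) in WT-GFP, with 0 to 2.35 in the 3 samples with few genes. It had 206, 1396, 203 and 693 in APP-GFP and 238, 303, 146, 143 and 202 in APP-SOCS3, and was not called without the 4 samples (1.15). *Rspo3*, a secreted activator of Wnt signalling, was likewise not called without them (1.75). *Rpusd3*, a mitochondrial pseudouridine synthase, stood out by its even levels. It had 394 to 850 (median 420) in WT-GFP, 667, 775, 835 and 635 in APP-GFP and 734, 734, 667, 646 and 792 in APP-SOCS3. Apart from WT-GFP replicate 6, which had the highest level of all 16, every WT sample was below every APP sample. Its difference of 0.61 (exact permutation p = 0.00149) was close to the fold threshold, and the call was lost in 5 of the 16 fits that left out 1 sample. Differences between the APP groups were small against their intervals for *Rpusd3* (-0.02, 95% interval -0.53 to 0.49), *Stard9* (0.24, -2.4 to 2.87) and *Socs4* (-0.87, -3.28 to 1.54).

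**Figure D4:**
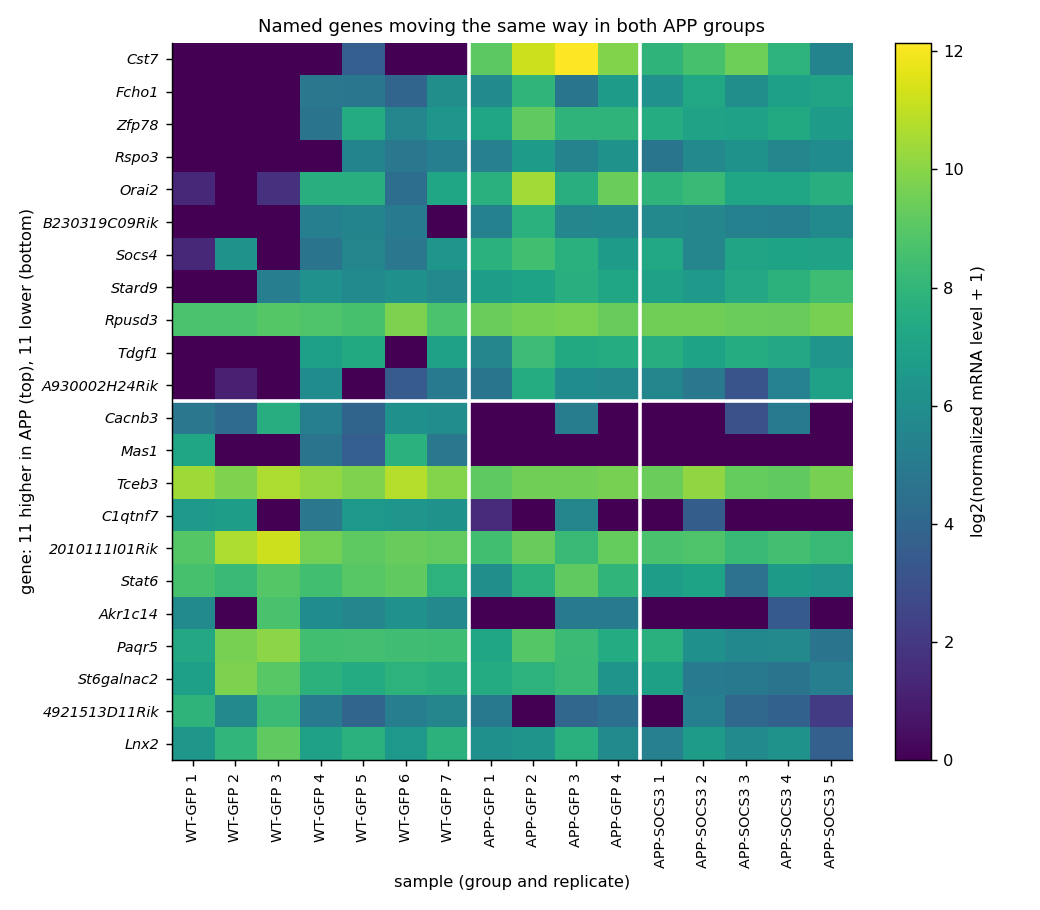
Normalized mRNA levels, as log2(level + 1), of 11 higher and 11 lower shared genes with small p, in 16 samples. Columns are samples by group and replicate, white lines divide groups and directions. WT-GFP replicates 1, 2 and 3 are at or near 0 for 8 of the 11 higher genes, and *Mas1* is at 0 in all 9 APP samples.

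Shared higher genes as a set were of low level. Their median mean level was 12.2 in WT and 46.1 in APP samples, and 53.9% of them were under 50 on both sides, against 31.5% of all genes tested. The files gave no symbol for 55.2% of them, against 31.2% of all genes tested and 34.3% of shared lower genes. By RefSeq, 36.1% of the shared higher and 58.7% of the shared lower genes matched a protein-coding gene, against 61.8% of all genes tested. In GFP- cells of WT mice, the median mean level was 38.6 for shared higher, 143 for shared lower and 206 for all genes tested. In WT astrocyte samples these medians were 12.2, 46.5 and 122. The 832 shared genes, higher and lower together, made up 2.36% to 4.89% of the genes tested on each of 20 chromosomes. How many of the higher genes were detected followed the number of genes detected in a sample as well as the group. In the 3 WT-GFP samples with few genes, 19.4% to 35.8% of the 660 higher genes were detected, and in the other 4 WT-GFP samples 52.3% to 78.2%. APP-GFP replicate 2 had 65.8%, and the other 8 APP samples 85.8% to 97.4%. For the 172 lower genes, WT-GFP samples had 62.8% to 93% and APP samples 34.9% to 65.7%, while over all genes tested the 4 samples with few genes had 64.6% to 77% and the other 12 had 84.6% to 94.7%. These genes were chosen by the same values, so the group difference is a description.

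**Figure D5:**
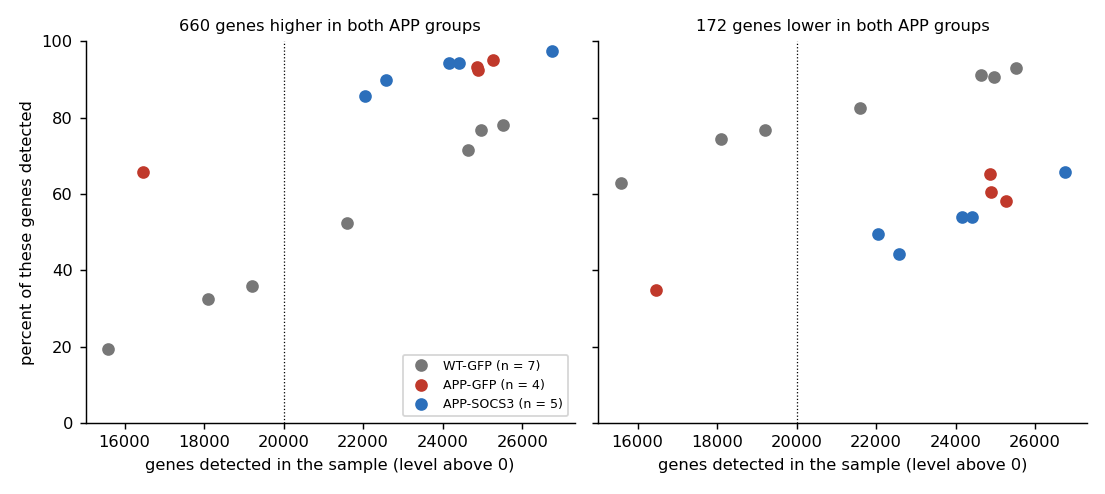
Share of the 660 shared higher genes (left) and 172 shared lower genes (right) detected in each sample, in percent, against the number of genes detected in that sample. Points are samples coloured by group and the dotted line marks 20000 genes. For the higher genes, WT-GFP samples ran from 19.4% to 78.2% with the number of genes detected.

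Among 11 of the shared lower genes with the smallest p, 11 were called with edgeR, 11 with DESeq2 and 10 without the 4 samples with few genes. These were *Cacnb3*, *Mas1*, *Tceb3*, *C1qtnf7*, *2010111I01Rik*, *Stat6*, *Akr1c14*, *Paqr5*, *St6galnac2*, *4921513D11Rik* and *Lnx2*, of which *4921513D11Rik* was the one not called in the last fit. All 11 stayed called whichever single sample was left out. They were chosen by p in these same samples, so calls kept in other fits of the samples are a description and no independent support. *Mas1*, the receptor for angiotensin-(1-7), was at 0 in all 9 APP samples. In WT-GFP replicates 1 to 7 its levels were 145, 0, 0, 24.6, 11.2, 216 and 28.2, so 2 WT samples were at 0 as well. Its adjusted p was 0.927 with limma, 0.843 with edgeR and 0.00515 with DESeq2. With a floor of 3 reads in each APP library, its WT mean of 60.7 was at least 21.1-fold higher, and without WT-GFP replicate 6, which had the highest level, at least 12.1-fold higher. *Cacnb3*, a beta subunit of voltage-gated calcium channels, had 13.8 to 191 (median 37.4) in WT-GFP, 0, 0, 33.6 and 0 in APP-GFP and 0, 0, 7, 30.4 and 0 in APP-SOCS3. Here 7 of the 9 APP samples were below every WT sample. *Akr1c14*, a hydroxysteroid dehydrogenase, had 0 to 406 (median 55.4) in WT-GFP, 0, 0, 29.7 and 29.6 in APP-GFP and 9.8 or less in APP-SOCS3. *C1qtnf7*, a secreted protein of the C1q/TNF family, had 0 to 107 (median 82.9), then 1.81, 0, 44.5 and 0, and at most 11.2. Their differences were -3.93 and -4.14 on the log2 scale, with exact permutation p of 0.00813 and 0.00393.

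Several lower genes were at levels where every sample had reads. *Tceb3*, which encodes elongin A, a subunit of a transcription elongation complex, had 882 to 1793 (median 1138) in WT-GFP, 554, 728, 721 and 799 in APP-GFP and 662, 1116, 616, 572 and 807 in APP-SOCS3. Of the 9 APP samples, 8 were below every WT sample, with a difference of -0.74 ± 0.19 (SE, adjusted p = 0.927, exact permutation p = 0.00157). The APP groups differed by 0.08 (95% interval -0.49 to 0.64). The entry *2010111I01Rik* also carries the host locus of *Mir23b*, *Mir24-1* and *Mir27b* on chromosome 13 (62964892 to 63326075), and its reads were not resolved into gene and miRNA host. It had 497 to 2389 (median 635) in WT-GFP, 358, 643, 292 and 614 in APP-GFP and 399, 451, 291, 367 and 291 in APP-SOCS3, and 7 of the 9 APP samples were below every WT sample. *Paqr5*, a membrane progestin receptor, had 158 to 1044 (median 351) in WT-GFP, 142, 496, 313 and 178 in APP-GFP and 211, 67.9, 50, 51 and 24.6 in APP-SOCS3. *St6galnac2*, a sialyltransferase, showed a like order, with 115 to 858 (median 220), then 176, 228, 286 and 75.8, and 120, 29.8, 29, 24.5 and 36. For *Paqr5* and *St6galnac2*, the APP-GFP samples lay mostly inside the WT range, and the APP groups differed by -2 (95% interval -3.31 to -0.69) and -2.1 (-3.45 to -0.76). Most of their pooled difference came from APP-SOCS3, with -0.72 and -0.61 in APP-GFP against -2.71 for each in APP-SOCS3.

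Endothelial markers were lower mainly in APP-SOCS3 samples. Of 14 markers, 7 were called lower in APP than in WT (*Flt1*, *Kdr*, *Ly6c1*, *Slco1a4*, *Abcb1a*, *Esam* and *Itm2a*), beside 1.04% of all genes, and none was shared. *Flt1*, a VEGF receptor, had means of 1667 in WT-GFP, 1585 in APP-GFP and 260 in APP-SOCS3. The median difference of the list from WT-GFP was -0.03 in APP-GFP and -2.53 in APP-SOCS3. In APP-SOCS3, 13 markers were called lower than in APP-GFP, beside 2.23% of all genes. Without the 4 samples with few genes, 12 endothelial markers were called lower in APP and 6 of them were shared, beside 3.36% of all genes called lower in that fit. On all samples, edgeR called 1 endothelial marker lower, *Esam*, beside 1.68% of all genes. Among 11 mural cell markers, *Higd1b* was called lower, a call lost with edgeR, with DESeq2 and in 9 of 16 fits without 1 sample, and the list had medians of -0.07 and -2.05. In the limma fit of 16 samples, no microglial marker of 16 was called in APP against WT, with medians of 0.54 and -1.12. In APP-SOCS3, 13 of them were called lower than in APP-GFP, beside 2.23% of all genes. Without the 4 samples with few genes, 3 microglial markers were called lower in APP, beside 3.36% of all genes. With the endothelial covariate, 3 were called higher, beside 3.14% of all genes. Of 8 border macrophage markers, *Clec10a* was called higher, with 0 in 6 of 7 WT-GFP samples, 62.5, 37.9, 40.6 and 66.3 in APP-GFP and 0 in 4 of 5 APP-SOCS3 samples, and it was not shared. Its call was lost in 11 of 16 fits without 1 sample and without the 4 samples with few genes (exact permutation p = 0.0533 over all samples). Of the shared lower genes above, *Paqr5*, *St6galnac2* and *Stat6* were lower in APP-SOCS3 than in APP-GFP in the same direction as these markers, and the part of endothelial or microglial RNA in their values was not tested. With endothelial markers as a covariate, their differences went from -1.82 to -0.89, from -1.78 to -0.94 and from -1.68 to -1.24, and with microglial markers to -1.6, -1.57 and -1.52, and all 3 stayed called. In GFP- cells of WT mice their mean levels were 2062, 1934 and 3405, against 488, 329 and 406 in WT-GFP samples. Of the other shared lower genes listed above, all but *4921513D11Rik* (30.8 against 103) also had higher means in GFP- cells. The part of other cells' RNA in their values was not tested. In the limma fit of 16 samples, no marker was called in APP against WT among 13 neuronal, 9 oligodendrocyte precursor, 9 oligodendrocyte, 8 ependymal, 8 choroid plexus and 5 erythroid genes tested. No T cell gene reached the minimum level. With edgeR and with DESeq2, 1 choroid plexus marker was called lower, beside 1.68% of all genes with edgeR. With DESeq2, 1 oligodendrocyte marker was called higher, beside 1.93% of all genes. Without the 4 samples with few genes, 2 oligodendrocyte, 1 ependymal and 1 choroid plexus marker were called lower, beside 3.36% of all genes.

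The 92 called genes that were not shared were mostly lower, 66 against 26 higher. In 55 of the 66, APP-SOCS3 lay further from WT-GFP than APP-GFP did. *Grap*, an adaptor of receptor tyrosine kinases, had 528 to 2412 (median 690) in WT-GFP, 189, 1682, 1118 and 406 in APP-GFP and 278, 145, 139, 68.6 and 150 in APP-SOCS3. *Tpd52*, a vesicle trafficking protein, differed by -0.37 in APP-GFP and -0.98 in APP-SOCS3. *Tyw3*, a tRNA modification enzyme, went the other way, with -1.32 in APP-GFP and -0.49 in APP-SOCS3, and *Htatsf1*, a splicing factor, had -0.58 and -0.71. On the higher side, *Ubald2* had 1.08 and 0.57, and *Thnsl2* 0.5 and 0.68. *Thnsl2* was not called with edgeR or DESeq2, *Grap* not with edgeR and *Tyw3* not without the 4 samples. *Socs3* itself was called higher (2.63 ± 0.8, SE, exact permutation p = 0.0117) through the vector. It had 458 to 1208 in WT-GFP, 1148, 438, 1639 and 1090 in APP-GFP and 14488, 37750, 13296, 15732 and 16050 in APP-SOCS3, which checks the labels of the vector groups.

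*App* and *Prnp*, which the APP transgenes could touch, were not called in the limma fit of APP against WT. Reads of the chimeric *App* transgene may fall on the mouse gene, and the counts do not tell them apart. *App* had 1735 to 5624 (median 4831) in WT-GFP and 3663, 11151, 7780 and 10265 in APP-GFP, with 3 of 4 samples above every WT sample. In APP-SOCS3 it had 3153, 6011, 2633, 4899 and 2715, with 4 of 5 inside the WT range. The pooled difference was 0.28 ± 0.33 (SE, exact permutation p = 0.442), and that between the APP groups -1.04 (95% interval -1.82 to -0.27). It joined 0.86 in APP-GFP with -0.18 in APP-SOCS3. With endothelial markers as a covariate, *App* was called higher (0.74). *App* was 38552 ± 4060 (SD, n = 3) in GFP- cells. *Prnp* (-0.04, exact permutation p = 0.871), whose promoter is used in this mouse line, was not called. Of 17 genes for amyloid precursor processing, *Psen2*, a γ-secretase subunit, was the one called (0.67 ± 0.29, SE, exact permutation p = 0.0318). It had 146 to 609 (median 306) in WT-GFP, 334, 804, 534 and 402 in APP-GFP and 433, 258, 622, 403 and 490 in APP-SOCS3, with most samples within the WT range, and was not called without the 4 samples (0.47) and in 6 of 16 fits without 1 sample.

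In the JAK-STAT pathway, 5 of 18 tested genes were called, beside 4.04% of all genes tested. Higher were *Socs3*, from the vector, *Cntfr*, the receptor of ciliary neurotrophic factor, and *Stat5a*. Lower were *Jak2* and *Stat6*. *Stat6*, the STAT of interleukin-4 signalling, had 229 to 578 (median 393) in WT-GFP, 63.4, 223, 585 and 247 in APP-GFP and 109, 132, 22, 96.1 and 81.7 in APP-SOCS3. Of 9 APP samples, 7 were below every WT sample, but APP-GFP replicate 3 was above them all. Its difference was -1.68 ± 0.51 (SE, adjusted p = 0.927, exact permutation p = 0.00612), and the APP groups differed by -1.47 (95% interval -2.73 to -0.22). *Jak2* had 370 to 1542 (median 1091) in WT-GFP, 404, 663, 272 and 982 in APP-GFP and 341, 1199, 518, 725 and 505 in APP-SOCS3. The *Jak2* groups overlapped, with 2 APP samples below every WT sample (-0.73 ± 0.33, SE, exact permutation p = 0.0556), and the call was lost in 10 of 16 fits without 1 sample. *Stat5a* had 0 to 241 (median 15.9) in WT-GFP, 82.4, 117, 83.1 and 153 in APP-GFP and 40.8, 240, 101, 216 and 145 in APP-SOCS3. It was not called with edgeR, DESeq2 or without the 4 samples (1.28 in the last). *Cntfr* had 649 to 1571 (median 1133) in WT-GFP, 1789, 1542, 2649 and 867 in APP-GFP and 2551, 1599, 5182, 3426 and 1383 in APP-SOCS3, and 6 of 9 APP samples were above every WT sample. Its difference was 0.93 ± 0.32 (SE, adjusted p = 0.927 with limma, exact permutation p = 0.0173). *Cntfr* was not shared, with 0.56 in APP-GFP and 1.23 in APP-SOCS3, and was not called without the 4 samples (0.77). *Stat3* was not called, at -0.27 ± 0.25 (SE, exact permutation p = 0.334), with 0.17 in APP-GFP and -0.63 in APP-SOCS3.

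Genes of astrocyte reactivity did not move together in both APP groups. *Gfap* had 10570 to 16032 (median 11308) in WT-GFP, 9125, 27460, 21597 and 9425 in APP-GFP and 7580, 12887, 6077, 6804 and 5605 in APP-SOCS3. Its pooled difference of -0.23 ± 0.28 (SE, exact permutation p = 0.472) joined 0.33 in APP-GFP with -0.68 in APP-SOCS3. *Vim* (0.11, exact permutation p = 0.699) and *Serpina3n*, an acute-phase protease inhibitor (0.7, exact permutation p = 0.311), were not called. Of 11 tested pan reactive genes, *Cd44*, the hyaluronan receptor, was called higher and shared, and *S1pr3*, a sphingosine-1-phosphate receptor, was called lower and not shared. *Cd44* had 0 in 5 of 7 WT-GFP samples and 73.8 in WT-GFP replicate 4, and 0 to 89.2 in APP samples, with 1 APP sample above every WT sample. It was not called with edgeR, with DESeq2 or without the 4 samples with few genes. *S1pr3* had 341 to 1300 in WT-GFP, 597, 1297, 1218 and 1362 in APP-GFP and 83.9, 144, 27, 343 and 258 in APP-SOCS3. Its call was lost with edgeR (-0.81), with DESeq2 (-0.82) and in 9 of 16 fits without 1 sample. A pan reactive gene other than *S1pr3* was called lower and shared with edgeR, where 1.68% of all genes were called lower, and 1 was with DESeq2. In the limma fit of 16 samples, none of 12 A1, 9 A2 or 13 plaque-associated astrocyte genes was called, with medians of -0.05, -0.27 and 0.1 beside 0.12 over all genes tested.

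In other lists, single genes were called, beside 3% of all genes called higher and 1.04% called lower. Of 18 interferon-stimulated genes, *Usp18*, a deubiquitinase of ISG15 conjugates, was called higher and shared (2.8 ± 1.11, SE, exact permutation p = 0.0182), with 0 to 242 (median 58.8) in WT-GFP and 72.4 to 914 in APP samples, of which 3 were above every WT sample. It was not called with edgeR, DESeq2 or without the 4 samples. Of 18 complement and cytokine genes, *Il1a* was called lower (-1.02 ± 0.48, SE, exact permutation p = 0.0745) and not shared. The call was kept with DESeq2 and lost with edgeR at a like size (-0.94), without the 4 samples and in 12 of 16 fits without 1 sample. Of 19 immediate early genes, *Arc* was called higher and shared (3.42 ± 1.43, SE, exact permutation p = 0.049), with 0 in 4 of 7 WT-GFP samples. In the contrast of the APP groups, 13 genes of that list were called lower in APP-SOCS3, beside 2.23% of all genes. *Arc* was not called with edgeR (1.48), with DESeq2 (1.52) or without the 4 samples (1.01), and the call was lost in 4 of 16 fits without 1 sample. In the limma fit of 16 samples, no gene was called in APP against WT among 10 antigen presentation, 13 transport, 17 secreted and matrix, 15 cholesterol synthesis, 11 heat shock, 15 circadian clock, 82 respiratory chain and 78 cytosolic ribosomal protein genes. Their median differences in that fit lay between -0.2 (heat shock) and 0.07 (circadian clock) on the log2 scale.

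Genes shared in 1 direction under limma, edgeR, DESeq2 and the limma fit without the 4 samples with few genes numbered 139 of the 22865 tested, a set counted after the data were seen. These fits use the same samples or a part of them, so their agreement is a description and no independent support. Of these, 96 were higher, 24 of them with a symbol, and 43 were lower, 32 of them with a symbol. The higher ones with a mean level of at least 50 on either side included *Cst7*, *Fcho1*, *Socs4*, *Stard9*, *Src*, a tyrosine kinase (mean 332 in WT and 609 in APP), *Acsf3*, a mitochondrial acyl-CoA synthetase (93.1 and 210), and *Kdelr1*, a retention receptor of the endoplasmic reticulum (403 and 644). The lower ones included *Cacnb3*, *Mas1*, *Tceb3*, *C1qtnf7*, *Akr1c14*, *Paqr5*, *Lnx2*, *Nid1*, the basement membrane protein nidogen (90.8 and 2.65), and *Ncf4*, a subunit of the phagocyte oxidase (88.7 and 16.3). *Src*, *Acsf3*, *Kdelr1*, *Nid1* and *Ncf4* were named after their values were seen. *Cst7* alone among the 139 had an adjusted p under 0.05 with limma.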

How the data were processed

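RNA of sorted astrocytes was amplified with a low-input kit and sequenced on an Illumina HiSeq 2000. Per the study's methods, the authors aligned reads with STAR 2.4.0 to mm10, counted them over constitutive gene regions of FAST DB and normalized them with DESeq2. The deposited signal is gene counts divided by size factors, here called the level, and 100% of values returned to whole reads, to a relative tolerance of 1e-06. Strand use and treatment of multi-mapping reads are not given in the sources used here.

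Of 60567 entries, 34671 have no symbol. Genes whose mean reached 10 in APP or WT samples were tested on log2(level + 1) with limma 3.58.1 (mean-variance trend), and p-values were adjusted by Benjamini-Hochberg over all of them. A log2 difference understates the change of genes of low level. Called genes changed 1.5-fold or more with an unadjusted p not above 0.05. Named genes were the 12 higher and 12 lower shared genes and the 4 higher and 4 lower genes that were not shared with the smallest p, given a symbol and a mean level of at least 50, together with genes past adjustment, fixed genes and called members of the gene lists. Of the genes so chosen, 3 are not reported here. Members and lists were chosen with earlier results of these data known. Alternatives were edgeR 4.0.16 and DESeq2 1.42.0 on whole reads, other pseudocounts, minimum levels, scalings and weights, marker covariates and leaving out each sample. The fit without 4 samples, marker ratios and the GGAA search were chosen after the data were seen. Scripts were tested on simulated data.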

Additional observations from a re-analysis of the deposited data

Results flagged for a closer look

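Among 163 groups of samples examined for the named genes, 23 held a sample far from the others by Dixon's test, which flags about 1 group in 20 by chance. In WT-GFP these were *Cst7* (replicate 5, 11.2), *Rpusd3* (replicate 6, 850), *C1qtnf7* (replicate 3, 0), *Akr1c14* (replicate 2, 0), *Htatsf1* (replicate 3, 1164), *App* (replicate 1, 1735), *Serpina3n* (replicate 2, 22.7), *Clec10a* (replicate 4, 8.85), *Ccl6* (replicate 3, 0) and *S1pr3* (replicate 1, 341). In APP-GFP they were *B230319C09Rik* (replicate 2, 218), *Cacnb3* (replicate 3, 33.6), *S1pr3* (replicate 1, 597) and *Cd44* (replicate 2, 0). In APP-SOCS3 they were *Socs4* (replicate 2, 44.6), *C1qtnf7* (replicate 2, 11.2), *Stat6* (replicate 3, 22), *Akr1c14* (replicate 4, 9.8), *St6galnac2* (replicate 1, 120), *Socs3* (replicate 2, 37750), *Prnp* (replicate 2, 2788), *Clec10a* (replicate 3, 31) and *Arc* (replicate 2, 0). All values are normalized mRNA levels.

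The level of *Socs3*, which the SOCS3 vector carries, was above that of APP-GFP in APP-SOCS3 by 4.2 on the log2 scale, past adjustment with limma. Without WT mice that received SOCS3, this is a difference between vectors and not an effect of APP.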

How the results depend on the processing

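The number of genes called in APP against WT, 924, became 294 with a minimum level of 100, 1996 with sample quality weights and 1 at an adjusted p under 0.05. Shared genes, 832, became 212, 1598 and 1. Calls between the APP groups, 879, became 1406 with no minimum level, 410 with a minimum of 100, 1351 with weights, 259 and 449 with microglial and endothelial covariates, and 1 at an adjusted p. The cause was not tested, except that fewer genes were tested at the higher minimum and more at none. Leaving out 1 sample at a time gave 721 to 1367 genes called in APP against WT, 662 to 1215 shared and 587 to 1304 called between the APP groups. Without WT-GFP replicate 3, 472 genes were called higher and 280 lower, and without APP-GFP replicate 2, 1061 and 306. The split between higher and lower was 982 to 1014 with weights, 182 to 112 at a minimum of 100 and 719 to 441 with the endothelial covariate. With DESeq2, 23 genes passed adjustment and with weights 14.

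Single genes kept their direction and side of the threshold in 1444 of the gene and alternative pairs computed, lost the call in 190, gained it in 1 and reversed in 6. Reversed were *Prnp* at 0.025 without the 4 samples and *Gfap* at 0.16 with the endothelial covariate, neither of which was called. Leaving out 1 sample gave -0.18 to 0.11 for *Prnp* and -0.025 to 0.25 for *Vim*. *Cst7* stayed called in the other 14 alternatives, at 5.64 to 11.4.

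Whether replicate numbers pair the samples could not be settled from so few weak correlations. Deviations of 13 same-numbered pairs correlated at -0.078 to 0.153 (median 0.039), and 2 pairs were over 0.1. The 70 pairs with different numbers correlated at -0.178 to 0.193 (median -0.005), and 5 were over 0.1. With a replicate block, 1848 genes were called (1591 higher, 257 lower), 1754 were shared and 0 passed adjustment, where 2084 genes had an unadjusted p not above 0.05, and the adjusted p of *Cst7* was 0.255. Low levels limit most shared genes, as 53.9% of those that were higher had a mean under 50 on both sides.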
